A study of Mus musculus with 38 samples.

Results

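Oligodendrocyte precursor cells (OPCs) from pups with a Cre-driven deletion in Bmal1 were compared with control OPCs at zeitgeber time 18 (ZT18). ZT18 is 6 h after lights off, the mid dark phase. All 4 libraries of NG2:Cre+;Bmal1fl/fl pups (KO) and all 4 libraries of NG2:Cre-;Bmal1fl/fl pups (WT) taken at this time were used, 8 of the 38 libraries of the series. The other 30 libraries came from the same genotypes at ZT0, ZT6 and ZT12 and served to estimate the spread and to set the ZT18 difference beside that at other times. OPCs were immunopanned from the forebrain of mice at postnatal day 6 to 7 kept in 12 h light and 12 h dark, by depletion on BSL1 plates and capture with an antibody to PDGFRα, and their polyA RNA was sequenced. Each library pooled 2 mice.

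Both groups carried the floxed Bmal1 alleles, so they differed by the Cre transgene and the recombination it drives. Cre was under the NG2 (Cspg4) promoter, which is active in OPCs and, as background, also in pericytes. No Cre-positive group with an intact Bmal1 was analysed here, so an effect of the transgene and an effect of the deletion cannot be told apart. The submitters describe removal of the DNA-binding domain and a hypomorph rather than a null allele. Arntl, the gene for BMAL1, had 17.7 to 20.8 CPM (counts-per-million) in the 4 KO libraries, against 21.2 to 30.4 CPM in the 4 WT libraries. The groups did not overlap, but the gene did not pass the test (log2 fold change, KO over WT, -0.42, SE 0.13, adjusted p = 0.0741), and a count over the whole gene says little about the deleted exon.

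BMAL1 pairs with CLOCK and binds E-box sequences (CACGTG) in promoters, where it drives Per, Cry, Nr1d and Dbp genes. PER and CRY proteins block the BMAL1:CLOCK dimer, NR1D proteins (REV-ERBs) repress Arntl, and DEC proteins (Bhlhe40, Bhlhe41) compete for E-boxes, which closes the loop once a day. OPCs are the dividing glia that give rise to myelinating oligodendrocytes.

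E-boxes lay in the 300 bases around the start sites of several clock genes described below. The promoters of a DEC gene (Bhlhe41), of Ciart (a repressor of BMAL1:CLOCK), of Cry1 and of Per1 are shown. They were picked because they hold CACGTG and their genes had higher levels in every KO library than in any WT library. Other clock genes with such levels are not shown. Sequences are RefSeq's, on GRCm38.p6, from 250 bases before to 50 bases after the start, in the direction of transcription, with CACGTG in capitals. They lie at chr6:145865371-145865670 on the minus strand (Bhlhe41), chr3:95882179-95882478 on the minus strand (Ciart), chr10:85185005-85185304 on the minus strand (Cry1) and chr11:69098699-69098998 on the plus strand (Per1).
Bhlhe41: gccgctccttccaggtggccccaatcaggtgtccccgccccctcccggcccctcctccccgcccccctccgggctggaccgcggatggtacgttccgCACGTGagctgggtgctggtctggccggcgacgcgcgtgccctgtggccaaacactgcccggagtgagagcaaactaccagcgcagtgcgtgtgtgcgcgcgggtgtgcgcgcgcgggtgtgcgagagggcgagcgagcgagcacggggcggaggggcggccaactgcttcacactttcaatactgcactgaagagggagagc
Ciart: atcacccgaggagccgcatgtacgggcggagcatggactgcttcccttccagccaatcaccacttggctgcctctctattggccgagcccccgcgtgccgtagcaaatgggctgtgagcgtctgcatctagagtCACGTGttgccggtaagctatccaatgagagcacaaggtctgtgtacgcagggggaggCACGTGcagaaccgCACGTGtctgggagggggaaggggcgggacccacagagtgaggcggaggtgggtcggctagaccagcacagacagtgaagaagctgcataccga
Cry1: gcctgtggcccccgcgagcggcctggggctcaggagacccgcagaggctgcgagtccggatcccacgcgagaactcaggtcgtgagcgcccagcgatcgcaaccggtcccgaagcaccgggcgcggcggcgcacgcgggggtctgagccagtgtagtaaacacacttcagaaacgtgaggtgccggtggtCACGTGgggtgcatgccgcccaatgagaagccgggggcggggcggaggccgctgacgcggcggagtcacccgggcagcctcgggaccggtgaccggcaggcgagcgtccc
Per1: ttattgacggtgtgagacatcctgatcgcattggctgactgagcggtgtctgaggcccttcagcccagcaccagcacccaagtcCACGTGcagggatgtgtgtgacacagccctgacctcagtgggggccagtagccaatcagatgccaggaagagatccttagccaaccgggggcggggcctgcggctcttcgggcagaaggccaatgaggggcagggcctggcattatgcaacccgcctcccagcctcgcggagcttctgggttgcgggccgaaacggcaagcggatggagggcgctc

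The E-box began 153 bases before the start in Bhlhe41, 116, 58 and 44 bases before it in Ciart, 60 bases before it in Cry1 and 166 bases before it in Per1. The second RefSeq promoter of Per1 and the windows of Per3, Nfil3, Nr1d2, Nr1d1 and Dbp held no CACGTG. Tef, another clock gene, held it 127 and 138 bases before start sites. Its levels overlapped between KO and WT libraries, and it was not called. The letters CACGTG, which read the same on both strands, were found in 7.15% of all 32851 mouse promoters in the table and in 8.99% of the 17201 promoters of genes tested. They stood in 12.1% of the 330 promoters of genes called higher in KO, and in 5.77% of the 104 promoters of genes called lower. A match says only that the letters are there.

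The libraries of the groups differed in ways that the genotype labels do not name, and these stand beside every result that follows. Counts totalled 30707018 to 39007229 in KO libraries and 24886768 to 28242600 in WT libraries. Genes of rRNA biotype took 0.0946 to 0.263% of the counts in KO libraries, against 0.777 to 0.998% in WT libraries. A share below 0.3% was otherwise seen in 4 libraries, 3 of WT at ZT12 and 1 of KO at ZT6, which allows a term for it to be fitted. RNA of both sexes, which the study's pooling should give, was found in 3 of the 4 KO libraries and 2 of the 4 WT libraries. Replicates of a group differed by far more than counting error, by a chi-square per degree of freedom of at least 12.2, so none was a repeat of another library. WT replicate 4 stood farthest from its group, with values up to 61.9.

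Among 22798 genes tested, edgeR's quasi-likelihood test over all 38 libraries called 488 at ZT18, or 2.14%, at a Benjamini-Hochberg adjusted p under 0.05. Of these, 318 genes (1.39%) were higher and 170 (0.746%) were lower in KO OPCs. The split depended on the scaling, with 237 higher and 234 lower under RLE size factors and 198 higher and 259 lower under library size alone. Genes with an unadjusted p under 0.05 numbered 4144, and the median log2 fold change of all genes was 0.00 at 2 decimals. Of the 488 genes, 11 were called in the same direction at ZT0, where 65 genes were called, 3 at ZT6, where these were the only genes called (Per3, Snx33 and Imp3), and 1, Snx33, at ZT12, where 1139 genes were called. The called difference itself was tested against the mean of the other 3 times for every gene, and 205 genes (0.899%) passed, among them 162 of the 488.

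The number of calls depended on single libraries and on the rRNA share. Leaving out 1 ZT18 library gave 95, 132, 161 and 44 called genes without KO replicates 1 to 4, and 254, 200, 55 and 65 without WT replicates 1 to 4. Called in all 8 of these fits were 33 of the 488 genes, among them Snx33, Imp3, Mbp, Nr4a1, Egr4, Dusp5, Rrad, Csrnp1, Tnf, Il1a, Ccl4, Ccrl2, Osm, Plaur, Edn1 and Cox5b, and every other gene named below as called lost its call in at least 1 of them. With an indicator of the low rRNA share in the model only Snx33 and Mbp were called, although 482 of the 488 genes kept their sign and 258 kept a size within 1.5 times of the first or larger. In the libraries with RNA of both sexes 1 gene, Snx33, was called. At ZT18 the low share and the genotype coincide, so the term is estimated from the 4 low libraries at other times, and the part of the rRNA share in the results below was not tested.

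Clock genes moved in both directions, and few passed the test. Of 24 clock genes, Nfil3 and Bhlhe41 were called higher and Per3 lower in KO, against 1.39% and 0.746% of all genes tested. On leaving out 1 ZT18 library neither of the higher genes was called, and Per3 was called in 6 of 8 fits. Per3, a member of the repressive PER arm, had 33.2, 24.2, 27.4 and 30.2 CPM in KO libraries, against 47.5, 45.1, 55.4 and 57.9 CPM in WT libraries. The highest KO library lay below the lowest WT library (log2 fold change -0.84, SE 0.17, adjusted p = 0.0127). Per3 was also lower in KO at ZT0 (log2 fold change -0.99, adjusted p = 0.0121) and at ZT6 (-0.81, adjusted p = 0.0136), but not called at ZT12 (-0.24, adjusted p = 0.411). Its ZT18 difference was not distinguishable from the mean of the other times (difference -0.16, SE 0.20, adjusted p = 0.749).

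Nfil3, a repressor that shares D-box sites with DBP, had 21.2, 29.4, 24.9 and 31.8 CPM in KO libraries, against 12.0, 13.4, 12.8 and 12.0 CPM in WT libraries. Every KO library was above every WT library (log2 fold change 1.10, SE 0.31, adjusted p = 0.0488), and the call was lost on leaving out any 1 ZT18 library. Bhlhe41 had 58.7, 79.3, 60.0 and 80.3 CPM in KO libraries, against 41.7, 36.6, 36.0 and 27.6 CPM in WT libraries (log2 fold change 0.97, SE 0.26, adjusted p = 0.0427). The groups again did not overlap. Both genes ranged more widely at other times, up to 84.0 CPM for Nfil3 and 147 CPM for Bhlhe41.

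Several direct targets stood apart between the groups without passing the test. Ciart had 13.9, 16.3, 12.6 and 19.8 CPM in KO libraries, against 7.02, 5.41, 5.90 and 5.44 CPM in WT libraries (log2 fold change 1.39, SE 0.45, adjusted p = 0.0839). Per1, an immediate early member of the PER family, had 87.0, 86.7, 87.2 and 94.4 CPM in KO libraries, against 53.6, 35.9, 61.7 and 44.0 CPM in WT libraries (log2 fold change 0.86, SE 0.30, adjusted p = 0.101). No KO library was within the WT range in either gene. Both genes varied widely within a group at other times. In KO libraries at ZT6, Ciart ran from 8.72 to 88.5 CPM and Per1 from 71.7 to 289 CPM. Replicates 6 and 7 were lowest in both genes, as they were in Hspa1b, Il1b and Cd83 (below). Whether the ZT18 gap is separate from that variation was not tested. The Per1 difference at ZT18 exceeded the mean of that at the other times, where it was negative at each (difference 1.40, SE 0.33, adjusted p = 0.0386).

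Nr1d2, the gene of REV-ERBβ, had 42.3, 45.4, 44.3 and 43.2 CPM in KO libraries, against 63.4, 59.0, 62.5 and 55.1 CPM in WT libraries (log2 fold change -0.45, adjusted p = 0.102). It was called lower in KO at ZT0 (-0.67, adjusted p = 0.0483) and ZT12 (-0.50, adjusted p = 0.0357). Cry1 (0.46, adjusted p = 0.0867) and Bhlhe40 (0.81, adjusted p = 0.0889) had positive fold changes with no overlap between groups. Nr1d1 (0.07, adjusted p = 0.930), Dbp (0.27, adjusted p = 0.435), Per2 (-0.30, adjusted p = 0.363) and Clock (-0.31, adjusted p = 0.198) were not called. Over the 24 clock genes the median log2 fold change was 0.12, with 14 positive. KO was above WT without overlap in 8 and below it in 4, against 10.4% and 8.18% of all genes.

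**Figure D1:**
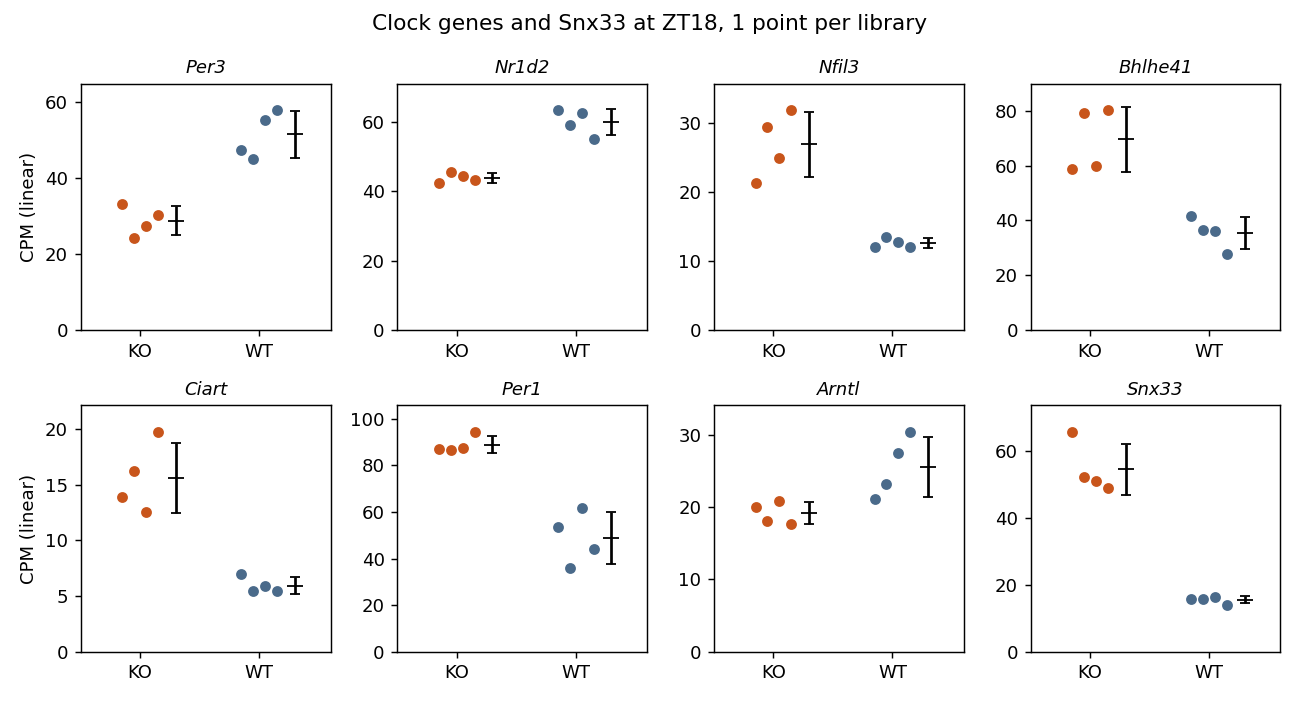
CPM (linear axis from 0) of 7 clock genes and Snx33 in the 4 KO and 4 WT libraries at ZT18, 1 point per library. Bars are the mean ± SD of 4 libraries. Per3 and Nr1d2 are below the WT range in every KO library, and Nfil3, Bhlhe41, Ciart, Per1 and Snx33 are above it in every KO library.

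The smallest adjusted p at ZT18 was that of Snx33, which encodes a sorting nexin of endocytosis. It had 65.6, 52.1, 51.0 and 48.9 CPM in KO libraries, against 15.7, 15.8, 16.3 and 14.0 CPM in WT libraries. The log2 fold change was 1.82 (SE 0.14, adjusted p = 6.45e-11), and it was called at ZT0 (2.11), ZT6 (1.96) and ZT12 (1.70) as well. With the rRNA term it was 1.55 (adjusted p = 5.07e-06). The gene lies at chr9:56917193-56928371 (GRCm38), beside Cspg4 at chr9:56865033-56899870, whose promoter drives the Cre transgene.

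Imp3, which encodes a component of the machinery that processes rRNA precursors, is the next gene, at chr9:56937475-56938398. It had 51.9, 54.3, 53.8 and 52.0 CPM in KO libraries, against 32.6, 28.8, 27.4 and 33.1 CPM in WT libraries (log2 fold change 0.80, SE 0.15, adjusted p = 0.0102). It was called at ZT0 (0.96) and ZT6 (0.81) but not at ZT12 (0.08, adjusted p = 0.807). Of 10 genes around Cspg4 only these 2 were called, against 2.14% of all genes tested. Odf3l1 on the other side (1.06, adjusted p = 0.533) had under 1.5 CPM in every library, and Cspg4 itself, the proteoglycan NG2, averaged 916 ± 178 CPM in KO libraries and 905 ± 84.9 CPM in WT libraries, a fold change whose sign depended on the scaling.

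Inflammatory genes mostly had positive differences in the KO libraries at ZT18. At the other times the list's median log2 fold change was 0.005 at ZT0, -0.19 at ZT6 and -0.59 at ZT12. Of 23 genes tested, 10 were called higher and none lower in KO, against 1.39% and 0.746% of all genes tested. A positive fold change was seen in 22, against 11302 of all 22798 genes, and the ZT18 median was 1.09, against 0.00 for all genes. KO libraries were above WT libraries without overlap in 17, against 10.4% of all genes. The cytokines Il1b, Il1a and Tnf, the chemokines Ccl3, Ccl4, Cxcl2 and Cxcl10, the prostaglandin synthase Ptgs2, the adhesion molecule Icam1 and the cytokine signalling inhibitor Socs3 were the 10. On leaving out 1 ZT18 library 3 to 7 of the 23 were called, and 0 with the rRNA term, under which the median was 0.74.

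Il1b had 49.6, 45.3, 36.8 and 54.7 CPM in KO libraries, against 3.72, 3.17, 2.99 and 1.21 CPM in WT libraries. Even the lowest KO library was far above the highest WT library (log2 fold change 4.08, SE 0.94, adjusted p = 0.0205). Tnf had 72.5, 85.7, 78.1 and 93.5 CPM in KO libraries, against 29.5, 28.1, 27.7 and 13.8 CPM in WT libraries (log2 fold change 1.73, SE 0.30, adjusted p = 0.00619). Ccl4, a chemokine of activated myeloid cells, averaged 231 ± 30.5 CPM in KO libraries and 51.1 ± 14.1 CPM in WT libraries (SD, n = 4 each; log2 fold change 2.18, adjusted p = 0.00528). Ccl3 (1.47), Il1a (1.92) and Ptgs2 (2.24) were also higher in KO than in WT. For Ptgs2 the KO libraries (7.56 to 11.9 CPM) lay within the range of the other times, 4.39 to 51.8 CPM. The WT libraries (1.02 to 2.95 CPM) lay below that range. Outside the list, Cd83, a surface protein of activated antigen-presenting cells, had 392, 457, 458 and 506 CPM in KO libraries, against 62.4, 60.3, 49.9 and 37.2 CPM in WT libraries (log2 fold change 3.11, SE 0.71, adjusted p = 0.0203). The chemokine receptor-like gene Ccrl2 (2.33), the urokinase receptor Plaur (2.29), oncostatin M (Osm, 1.54) and endothelin 1 (Edn1, 2.53) were also called higher.

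Microglia and macrophage markers stand beside these genes, since microglia are the brain's main source of Il1b, Tnf and Ccl3. None of 20 such markers was called, 19 had a positive fold change, and their median log2 fold change was 0.35. Their summed level was 13229 to 18279 CPM in KO libraries and 6071 to 16483 CPM in WT libraries, and none of the markers was at 0 in the KO libraries. In bulk samples more cells of a type and more RNA per cell cannot be told apart, and the part of these cells in the result was not tested.

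Immediate early genes, transcribed within minutes of a stimulus, split into members that were higher in KO and members that were not. Of 26 tested, 9 were called higher, against 1.39% of all genes tested, and none lower. The median log2 fold change was 0.70 at ZT18, against -0.24 at ZT0, 0.07 at ZT6 and -0.92 at ZT12. The orphan nuclear receptor Nr4a1 had 338, 281, 283 and 279 CPM in KO libraries, against 75.4, 63.2, 112 and 94.6 CPM in WT libraries (log2 fold change 1.78, SE 0.33, adjusted p = 0.00866). Its relative Nr4a3 averaged 43.3 ± 8.38 CPM in KO libraries and 8.71 ± 0.837 CPM in WT libraries (SD, n = 4 each; log2 fold change 2.31, adjusted p = 0.0305). The zinc finger factor Egr4 (2.06), the AP-1 member Fosl2 (1.66) and the stress factor Atf3 (1.35) were higher as well, as were Nr4a2, Egr3, Arc and Maff. On leaving out 1 ZT18 library 2 or 3 of the 26 were called.

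Fos and Egr1, the most widely used members of the class, were not higher in KO. Fos had 710, 923, 881 and 1203 CPM in KO libraries, against 1317, 1145, 1143 and 887 CPM in WT libraries (log2 fold change -0.27, adjusted p = 0.694). The KO range overlapped that of WT. Egr1 had a log2 fold change of -0.54 (adjusted p = 0.380). With the rRNA term 0 of the 26 genes were called and the median was 0.01. Nr4a1 then had a log2 fold change of 2.00 (adjusted p = 0.171) and Nr4a3 one of 3.22 (adjusted p = 0.214).

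Several other called genes belong to no list above. Gdf15, a secreted stress factor, averaged 28.5 ± 2.21 CPM in KO libraries and 1.21 ± 0.847 CPM in WT libraries (SD, n = 4 each; log2 fold change 4.56, adjusted p = 0.0239). Gadd45b, a growth arrest and DNA damage response gene, averaged 36.4 ± 4.13 CPM in KO libraries and 4.92 ± 1.29 CPM in WT libraries (log2 fold change 2.88, adjusted p = 0.0182). The ERK phosphatase Dusp5 (2.29), the small GTPase Rrad (1.87) and the nuclear factor Csrnp1 (1.44) were also higher. Spry4, an inhibitor of receptor tyrosine kinase signalling, was lower (74.8 ± 7.68 CPM in KO libraries and 132 ± 10.4 CPM in WT libraries, log2 fold change -0.81, adjusted p = 0.0358). In a list of 14 MAP kinase feedback genes Dusp5 and Spry4 were the only members called, against 2.14% of all genes tested. The list's median log2 fold change was -0.02.

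The largest fold change among called genes was that of a heat shock gene. Hspa1b, an inducible HSP70, had 193, 324, 100.3 and 245 CPM in KO libraries, against 1.52, 0.813, 1.87 and 0.554 CPM in WT libraries (log2 fold change 7.50, SE 1.95, adjusted p = 0.0352). Its neighbour and near copy Hspa1a averaged 143 ± 61.6 CPM in KO libraries and 3.49 ± 0.692 CPM in WT libraries (log2 fold change 5.35, SE 1.29, adjusted p = 0.0244), and how reads were split between the pair is uncertain. The other 12 of 14 heat shock genes were not called, with the small chaperone Hspb1 closest (2.19, adjusted p = 0.0860). Of all genes tested 1.39% were called higher. The list's median log2 fold change was 0.30, and at most 1 member was called on leaving out 1 ZT18 library.

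Of 19 genes of the unfolded protein and integrated stress responses, Ppp1r15a (GADD34), which restores translation after eIF2α phosphorylation, and Atf4, the response's transcription factor, were called higher. Ppp1r15a averaged 194 ± 35.2 CPM in KO libraries and 93.9 ± 23.7 CPM in WT libraries (log2 fold change 1.04, adjusted p = 0.0383). Atf4 averaged 299 ± 41.9 CPM in KO libraries and 195 ± 27.9 CPM in WT libraries (0.62, adjusted p = 0.0469). Neither call held on leaving out any 1 ZT18 library. Among 15 p53 targets the BH3 gene Pmaip1 (NOXA, 1.33) was the only one called. Beside both lists, 1.39% of all genes tested were called higher.

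Some of these genes varied within groups at the other times, and the same libraries of both genotypes were high or low in several of them. Hspa1b ran from 2.01 to 167 CPM in KO and from 1.06 to 88.2 CPM in WT libraries at ZT0, and from 1.35 to 107 CPM in KO and from 1.48 to 304 CPM in WT libraries at ZT12. At ZT6 it ran from 3.89 to 3017 CPM in KO libraries and from 577 to 1899 CPM in WT libraries. WT replicate 4 was the high WT library at ZT0 in Hspa1b (88.2 CPM), Il1b (35.1 CPM) and Cd83 (281 CPM). KO replicate 2 was the low KO library there (2.01, 2.33 and 52.3 CPM). In the same genes WT replicates 2 to 4 and KO replicates 3 and 4 were highest of their groups at ZT12. KO replicates 6 and 7 were lowest of their group at ZT6. What these libraries share was not tested. At ZT18 all 4 KO libraries were at the high level and all 4 WT libraries at the low level. Of the 30 libraries at other times, 17 were above the lowest KO ZT18 library in Hspa1b, 12 in Cd83, 9 in Nr4a1 and 4 in Il1b.

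**Figure D2:**
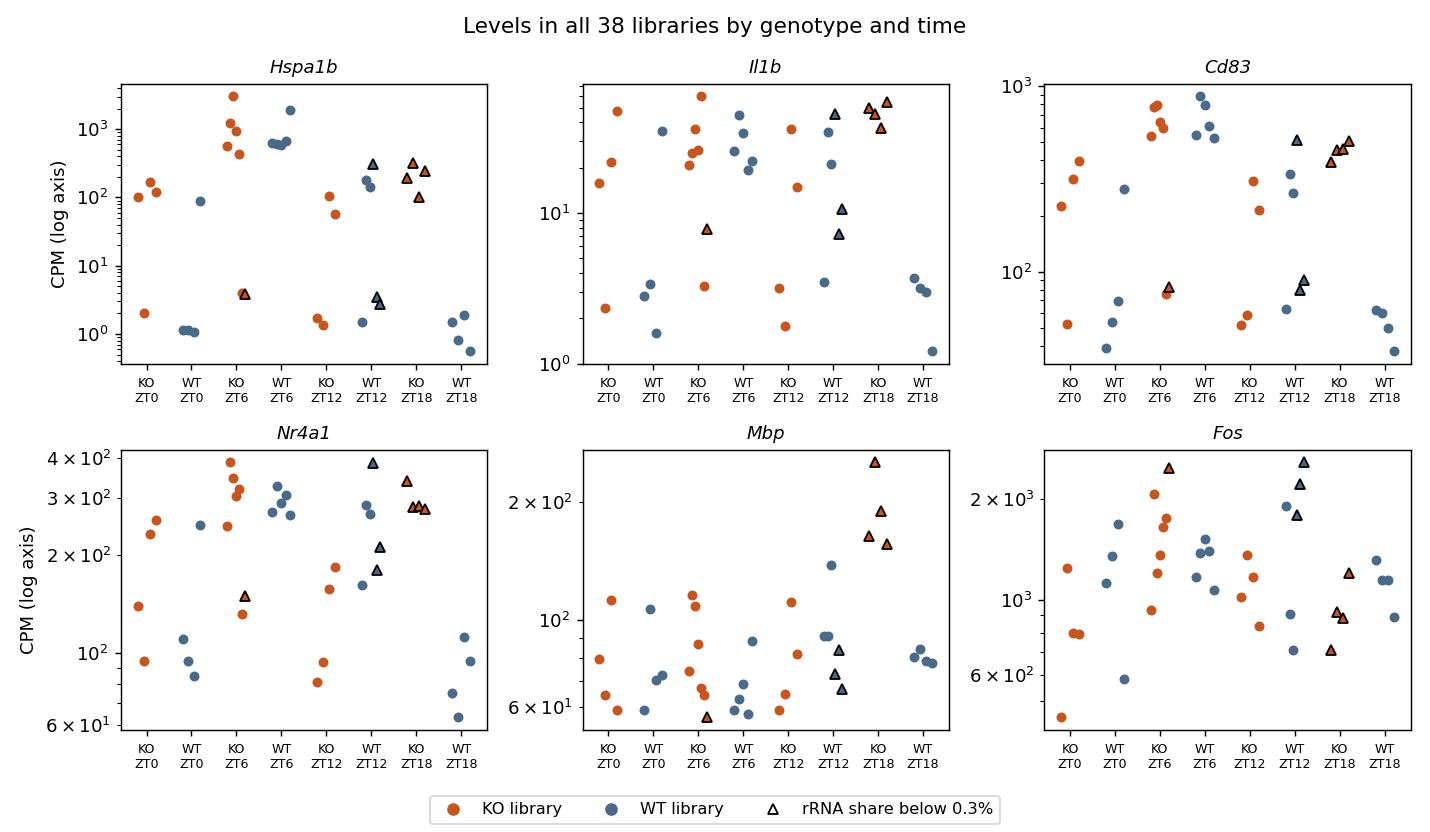
CPM (log axis) of 6 genes in all 38 libraries by genotype and time, 1 point per library, with triangles for libraries whose rRNA share is below 0.3%. Hspa1b, Il1b and Cd83 take both high and low values within groups at ZT0 and ZT12, while at ZT18 every KO library is high and every WT library low. Mbp is highest in the 4 KO libraries at ZT18.

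Markers of differentiating oligodendrocytes were higher in part. Of 19 genes tested, 4 were called higher, against 1.39% of all genes tested, and none lower. Positive fold changes were seen in 17, and the median log2 fold change was 0.31. Between 1 and 4 were called on leaving out 1 ZT18 library. Mbp, a main protein of compact myelin, had 164, 253, 190 and 156 CPM in KO libraries, against 80.6, 84.4, 78.8 and 77.8 CPM in WT libraries. Every KO library was above every WT library, and above all 30 libraries at the other times, which reached 139 CPM (log2 fold change 1.25, SE 0.23, adjusted p = 0.00866). Mbp was called with the rRNA term too (1.80, SE 0.29, adjusted p = 0.00425).

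Mag, a myelin adhesion molecule, averaged 21.9 ± 5.21 CPM in KO libraries and 6.96 ± 1.96 CPM in WT libraries (SD, n = 4 each; log2 fold change 1.65, adjusted p = 0.0239). The tight junction gene Cldn11 averaged 22.6 ± 4.22 CPM in KO libraries and 9.69 ± 2.31 CPM in WT libraries (1.22, adjusted p = 0.0157), and the phosphodiesterase Cnp 222 ± 13.9 CPM in KO libraries and 159 ± 13.7 CPM in WT libraries (0.48, adjusted p = 0.0223). The differences of Mbp (1.21), Mag (2.03) and Cldn11 (1.41) at ZT18 exceeded the mean of those at the other times in the test of that contrast. Mobp (2.59) was not called, with an adjusted p of 0.122.

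OPC markers were not called in either direction. Of 18, 12 had a negative fold change, and the median log2 fold change was -0.11. Their summed level was 15103 to 19498 CPM in KO libraries and 17658 to 20783 CPM in WT libraries, with none at 0. The microglia and macrophage sum given above was of similar size and exceeded the OPC sum in KO replicate 2 (18279 against 16361 CPM) and KO replicate 4 (16828 against 15103 CPM), though sums of CPM are not per length and give no share of cells. Lhfpl3 (-0.44, adjusted p = 0.0624) and the proteoglycan Vcan (-0.38, adjusted p = 0.0752) came nearest to the threshold.

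Genes of energy metabolism and of the translation and splicing machinery had small positive differences at ZT18. At ZT0 the list medians were 0.18 in glycolysis, 0.43 in oxidative phosphorylation, 0.30 in ribosomal proteins and 0.42 in the spliceosome. In that order they were 0.08, 0.16, 0.19 and 0.14 at ZT6, and -0.19, -0.18, -0.12 and -0.05 at ZT12. Among the shortest of 5 length classes of protein-coding genes the ZT18 median was 0.21, with 70.1% positive. Genes called higher were 1.39% of all genes tested. On leaving out 1 ZT18 library the calls were 0 to 2 in glycolysis, 1 to 3 in oxidative phosphorylation, 0 to 3 in ribosomal proteins and 0 to 2 in the spliceosome. In glycolysis 5 of 21 genes were called higher and none lower (median log2 fold change 0.36). Aldoa, aldolase A, had between 245 and 247 CPM in the 4 KO libraries, against 186, 171, 159 and 155 CPM in the WT libraries (0.55, SE 0.12, adjusted p = 0.0189). Pyruvate kinase Pkm (0.39), glucose phosphate isomerase Gpi1 (0.36) and the glycolytic activator Pfkfb3 (1.05) were among the 5. In nuclear-encoded oxidative phosphorylation 5 of 26 were called higher (median 0.31), with the cytochrome oxidase subunits Cox5b (0.69) and Cox8a (0.53) and the complex I subunits Ndufa2 (0.85) and Ndufa1 (0.69). Of 12 mitochondrially encoded genes none was called, and all had negative fold changes (median -0.26).

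All 27 ribosomal protein genes had positive fold changes, with a median of 0.37, and 3 were called higher. Rpl23 averaged 189 ± 6.27 CPM in KO libraries and 115 ± 17.5 CPM in WT libraries (0.72, adjusted p = 0.0128), and Rps27a (1.60) and Rpl8 (0.50) were also higher. These genes have many processed pseudogenes that can share reads. Of 20 spliceosome genes 4 were called higher, the Sm and Lsm proteins Snrpf (0.79), Lsm4 (0.59), Snrpd3 (0.54) and Snrpb (0.45), and the median was 0.29. With the rRNA term the medians were 0.21 in glycolysis, 0.28 in oxidative phosphorylation, 0.25 in ribosomal proteins and 0.15 in the spliceosome.

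**Figure D3:**
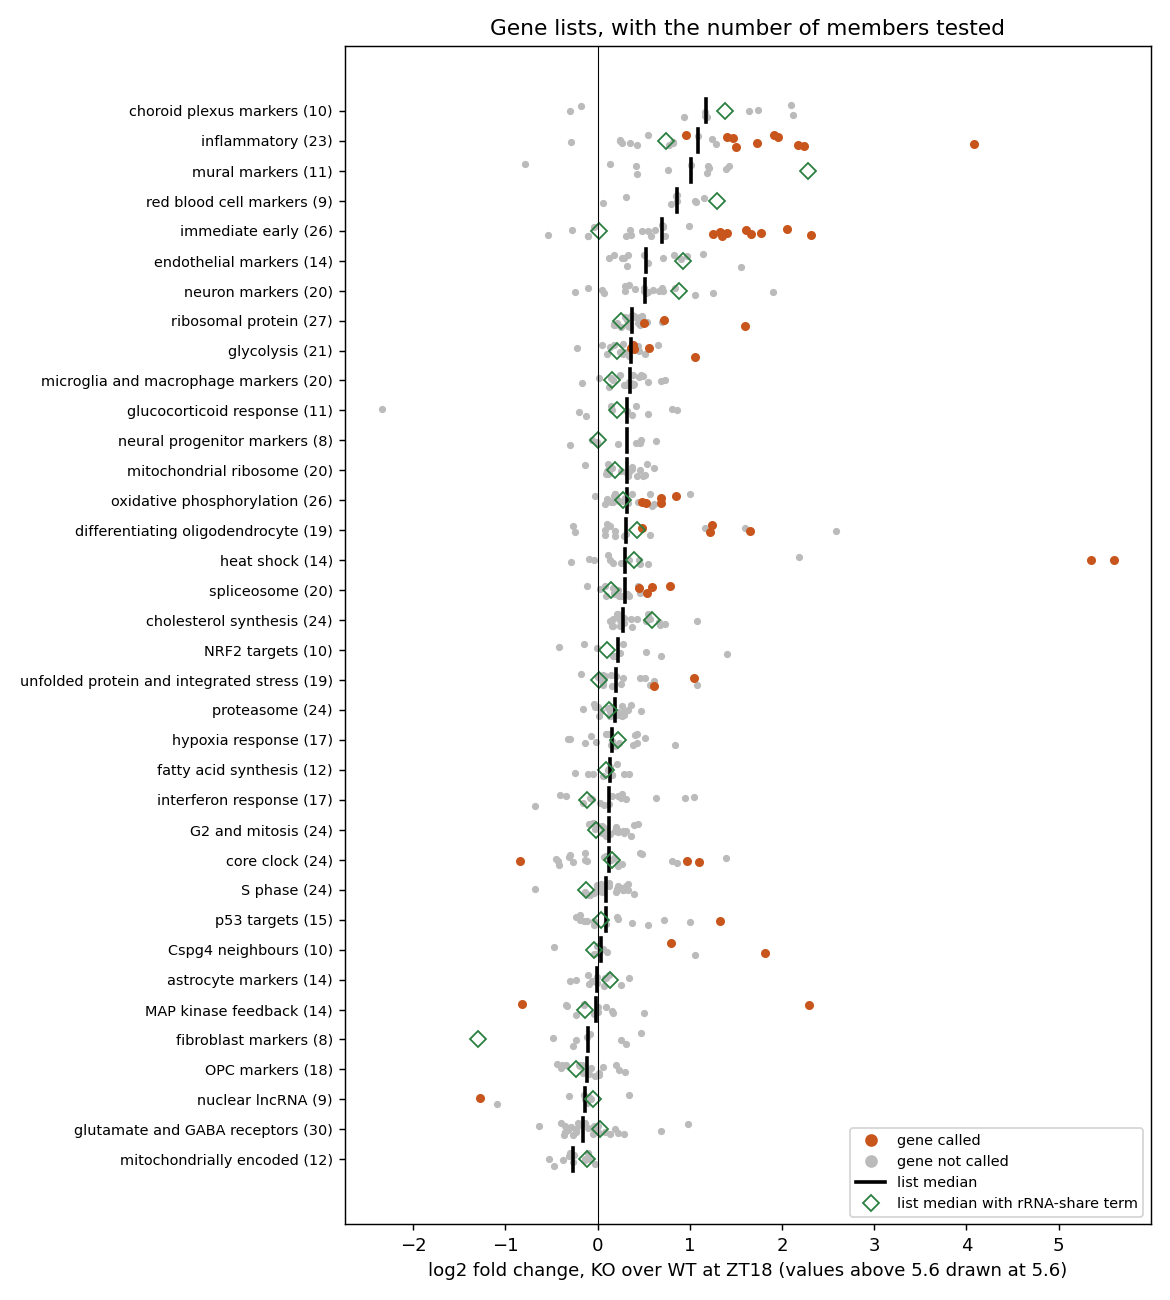
Log2 fold change (KO over WT at ZT18) of every tested member of 36 gene lists, with called genes in orange, others in grey, a bar at the list median and a diamond at the median with the rRNA-share term. Inflammatory genes have a median of 1.09 with 10 called members, and the immediate early median of 0.70 falls to 0.01 with the term.

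The genes called lower in KO differed in kind from those called higher. Genes called lower had a median length of 6443 bases, against 2876 for the genes called higher and 3220 for all genes tested. Protein-coding genes made up 62.4% of the 170 genes called lower, 97.5% of the 318 called higher and 69.4% of all genes tested. On this measure the genes called higher stood farther from the whole. Numbered zinc finger (Zfp) genes were 15 of the 170 (8.82%), none of the 318 and 1.68% of all genes tested. Protein-coding genes were split into 5 classes of equal number by length, and the median log2 fold change went from 0.21 in the shortest class to -0.07 in the longest. It ran the same way at ZT0 (0.15 to -0.08), where no library had the low rRNA share, and at ZT6 (0.11 to -0.04), where 1 KO library had it, and the opposite way at ZT12 (-0.16 to 0.07), where 3 of the 6 WT libraries had it. With the rRNA term the medians were 0.11 in the shortest class and -0.05 in the longest.

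Lars2, a mitochondrial leucyl-tRNA synthetase, had 125, 155, 266 and 137 CPM in KO libraries, against 991, 896, 861 and 1063 CPM in WT libraries (log2 fold change -2.48, SE 0.59, adjusted p = 0.0224). Its level moved with the rRNA share in WT libraries as well, at 96.5 CPM on average in the 3 WT ZT12 libraries of low share and 871 CPM in the other 3. With the rRNA term its fold change turned positive (0.68, adjusted p = 0.803). The nuclear RNA Malat1 (-1.28, adjusted p = 0.0443) and the repressor Zbtb20 (-0.81, adjusted p = 0.0347) were called lower, and with the term their fold changes were -0.05 and -0.06.

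With the term no gene was called lower, and the other large negative fold changes moved by different amounts. Mtcp1 averaged 5.63 ± 0.925 CPM in KO libraries and 12.5 ± 1.35 CPM in WT libraries (SD, n = 4 each; -1.15, adjusted p = 0.0188), and was -0.98 with the term (adjusted p = 0.534). The zinc finger gene Zfp975 averaged 4.38 ± 1.03 CPM in KO libraries and 9.32 ± 0.910 CPM in WT libraries (-1.09, adjusted p = 0.0149), and was -1.13 with the term (adjusted p = 0.320). Mybl1, a MYB-family transcription factor, averaged 28.8 ± 3.05 CPM in KO libraries and 48.7 ± 2.21 CPM in WT libraries (-0.76, adjusted p = 0.0136), and was -0.74 with the term (adjusted p = 0.341). The glycoprotein-folding sensor Uggt2 (-0.88), Zfp583 (-0.85), the carboxypeptidase Folh1 (-0.75), Zfp950 (-0.75), the protease Adamts6 (-0.74), the RNA-binding protein Rbm4 (-0.74) and Gcfc2 (-0.72) made up the rest of the 15 largest. With the term these 7 had log2 fold changes of -0.48 in Uggt2, -0.47 in Zfp583, -0.31 in Folh1, -0.55 in Zfp950, -0.59 in Adamts6, -0.40 in Rbm4 and -0.83 in Gcfc2.

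**Figure D4:**
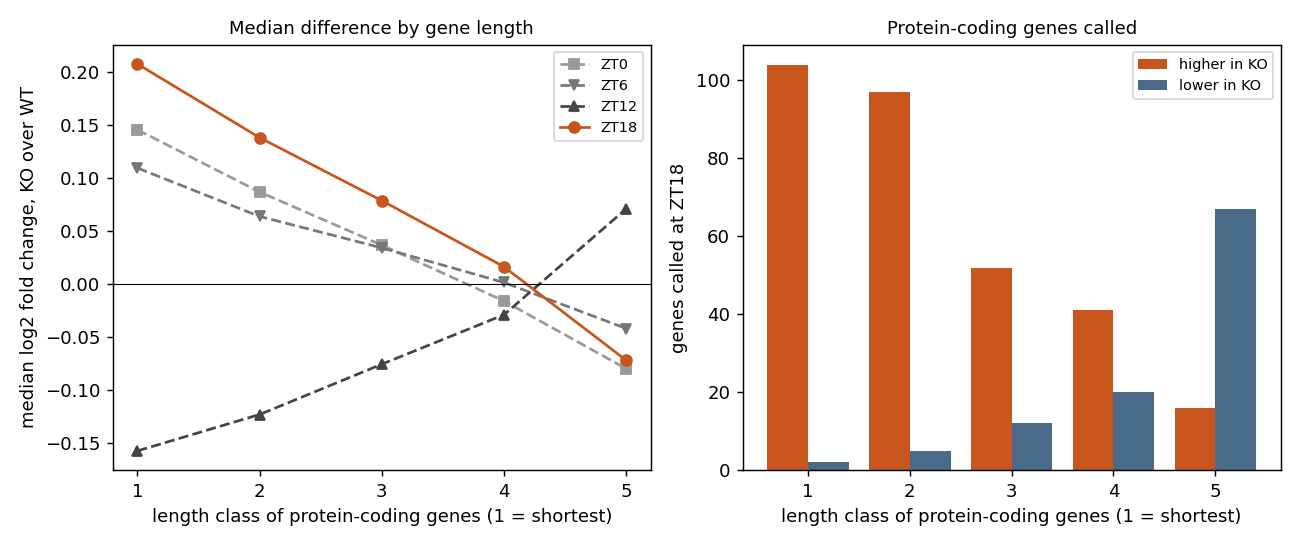
Left, median log2 fold change (KO over WT) of protein-coding genes in 5 classes of gene length at each time; right, number of protein-coding genes called higher or lower in KO at ZT18 per class. At ZT18 the median goes from 0.21 in the shortest class to -0.07 in the longest, and 104 of the shortest class were called higher against 2 called lower.

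Markers of the other cell types that could pass the panning were not called at ZT18, but several leaned one way. All 14 endothelial markers had positive fold changes (median 0.53), with sums of 163 to 208 CPM in KO libraries and 125 to 175 CPM in WT libraries. Of 11 mural markers 10 were positive (median 1.02), with sums of 256 to 392 CPM in KO libraries and 144 to 239 CPM in WT libraries. Of 10 choroid plexus markers 8 were positive (median 1.18), with sums of 181 to 458 CPM in KO libraries and 29.6 to 118 CPM in WT libraries. All 9 red blood cell markers tested were positive (median 0.86), with sums of 4652 to 7813 CPM in KO libraries and 3092 to 3516 CPM in WT libraries.

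Neuron markers were positive in 18 of 20 (median 0.52), with overlapping sums of 1876 to 2118 CPM in KO libraries and 1542 to 2351 CPM in WT libraries. Astrocyte markers (median 0.00 at 2 decimals, 6 of 14 positive), neural progenitor markers (0.32, 5 of 8 positive) and fibroblast markers (-0.10, 3 of 8 positive) overlapped between the groups in their sums. The part of these cells in the results above was not tested.

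**Figure D5:**
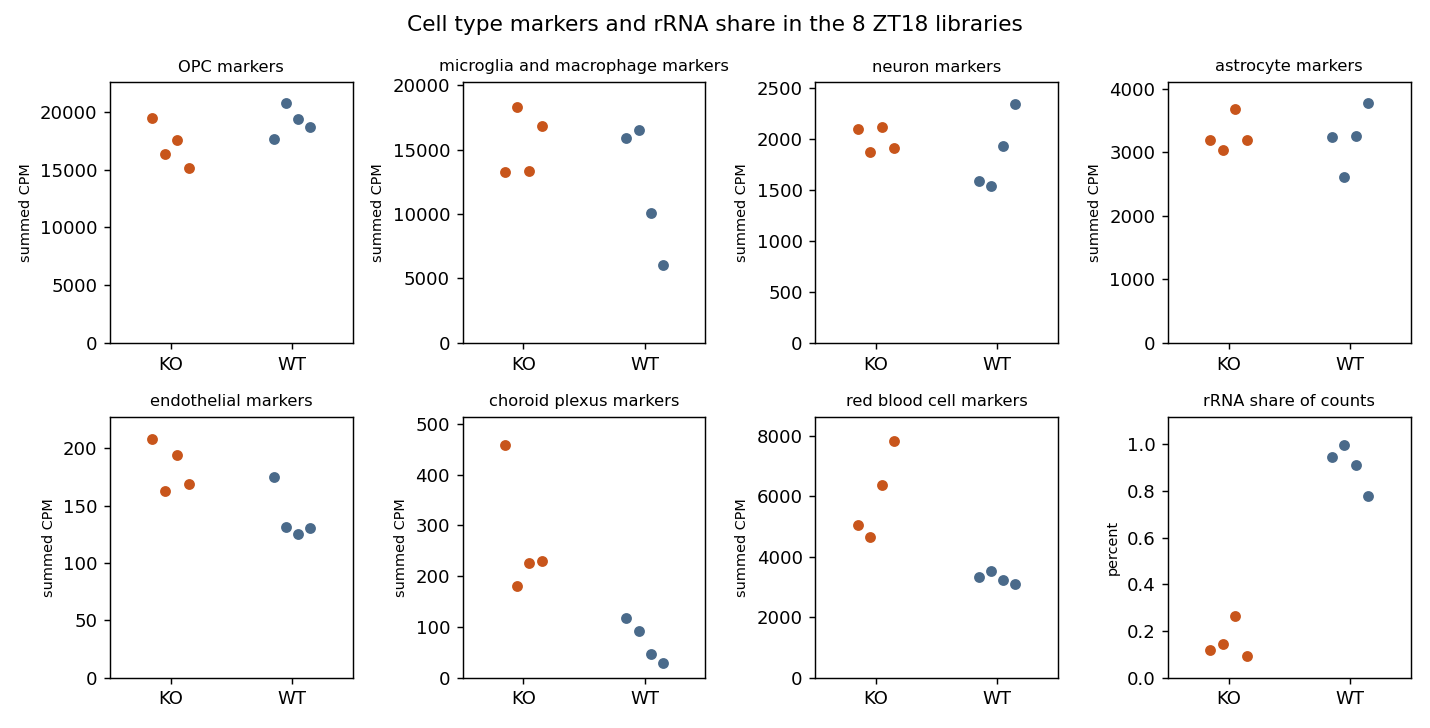
Summed CPM of 7 marker lists and the percentage of counts in rRNA genes in the 4 KO and 4 WT libraries at ZT18, 1 point per library, axes from 0. Red blood cell and choroid plexus sums are above the WT range in all 4 KO libraries, and the rRNA share is below it in all 4.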

How the data were processed

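PolyA RNA of immunopanned OPCs was sequenced as paired reads from 38 libraries, 4 of KO and 4 of WT at ZT18. The authors deposited a table of raw counts per gene for 54532 genes. Per the submitters' processing notes, fastp, HISAT2 2.0.5 and featureCounts 1.5.0-p3 were used with GRCm38 (mm10), and the strand setting is not given in the sources used here. Names and positions are those of the deposited table, and promoters come from RefSeq's GRCm38.p6 table, in which 142 of the 191 genes in the working list of named genes were matched.

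Counts were analysed in R 4.3.3 with edgeR 4.0.16: filterByExpr kept 22798 genes holding 99.9% of counts, with TMM scaling, 8 groups of genotype and time, and quasi-likelihood tests (glmQLFit, glmQLFTest) adjusted by Benjamini-Hochberg over all genes tested. Fold changes are KO over WT, and CPM are on TMM-scaled library sizes with no pseudocount. The contrast of ZT18 against other times is the KO over WT difference at ZT18 minus the mean of those at ZT0, ZT6 and ZT12. Alternatives used DESeq2 1.42.0, limma 3.58.1 (voom), other scalings and filters, terms for the rRNA share, a replicate block and each library left out. Totals of 24886768 to 39007229 counts per ZT18 library set the precision. On simulated counts for this comparison, with 22798 genes, 33 of 67 genes changed 1.5-fold, 55 of 67 changed 2-fold and 64 of 66 changed 4-fold were called. The changed genes were drawn from those of higher counts. Genes varied independently and the groups differed in nothing else, so the simulation does not cover the rRNA share, sex or cell mixture of the real libraries.

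The groups, genes and 36 gene lists were chosen with earlier results of these data known. Named genes were Arntl, the clock list, the 15 largest called changes each way at a mean log2 CPM above 1, up to 4 genes of smallest p per list and the 5 smallest p of the contrast with other times. Cspg4, Fos, Egr1 and list members given only by name or with a lone value beside their list were chosen after their values were seen. Labels call replicates biological, each of 2 pooled mice.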

Additional observations from a re-analysis of the deposited data

Results flagged for a closer look

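In groups of 4 libraries, 8 values stood far from the other 3 of their group by Dixon's test at the 95% level, of 190 groups examined, where chance gives about 1 in 20. They were Nr4a1 in KO replicate 1 (338 CPM), Per1 in KO replicate 4 (94.4 CPM), Cnp in WT replicate 2 (180 CPM), Lsm4 in WT replicate 4 (39.7 CPM), Nr4a3 in WT replicate 1 (7.47 CPM), Rpl23 in WT replicate 1 (141 CPM), Tnf in WT replicate 4 (13.8 CPM) and the summed endothelial markers in WT replicate 1 (175 CPM).

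The KO over WT difference at ZT18 differed from the mean of the other 3 times in the edgeR test for 34 of the 84 genes given with values, at an adjusted p under 0.05. Among all 22798 genes tested 205 passed (0.899%). Most of the 84 genes were picked by their ZT18 values or by this contrast, so their larger share is no evidence about ZT18. All fold changes here are the ZT18 log2 difference minus the mean of the other 3 times. It was 4.72 in Gdf15, 3.98 in Il1b, 3.04 in Cd83, 2.83 in Gadd45b, 2.68 in Edn1, 2.55 in Egr4, 2.51 in Ptgs2, 2.49 in Ccrl2, 2.45 in Ccl4, 2.39 in Dusp5, 2.32 in Plaur, 2.22 in Il1a, 2.14 in Rrad and 2.03 in both Tnf and Mag. It was 2.00 in Rps27a, 1.99 in Nr4a1, 1.93 in Fosl2, 1.88 in Osm, 1.83 in Atf3, 1.79 in Csrnp1, 1.72 in Ccl3, 1.69 in Pmaip1, 1.41 in Cldn11, 1.40 in Per1, 1.23 in Ppp1r15a, 1.21 in Mbp, 0.84 in Atf4 and 0.63 in Cox5b. It was negative in Lhfpl3 (-0.58), Mybl1 (-0.70), Zfp583 (-1.001), Mtcp1 (-1.15) and Lars2 (-2.71). For Tnf, Ccl3, Ccl4, Osm, Egr4, Atf3, Csrnp1, Atf4, Cox5b and Rps27a the KO over WT difference at ZT12 was itself called, in the opposite direction, and ZT12 enters the mean.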

How the results depend on the processing

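Scaling, filters and tools left the direction of the called genes given with values as it was, and the number of calls moved. Of the 65 such genes, 61 to 65 stayed called under RLE size factors, library size alone, rRNA genes left out and both other filters, and 57 with limma-voom. The 488 calls at ZT18 became 2393 with only the 8 ZT18 libraries in the fit, of which 481 were among the 488, 746 with limma-voom, 1211 with DESeq2, 2 with the indicator of low rRNA share, 9 with the log2 rRNA share and 1 in libraries of both sexes, an alternative chosen after seeing the data, which kept 3 KO and 2 WT libraries. The 205 genes that differed from other times became 0, 3 and 8 under those last 3 and 685 with DESeq2, and 97 without the 4 low-rRNA libraries of other times. Under the indicator, fitted in edgeR alone, 1453 genes had an unadjusted p under 0.05 against other times beside the 0 called, and 114 genes were called for the indicator itself. Leaving out each of the 38 libraries gave 44 to 761 calls at ZT18 and 20 to 336 against other times. Without KO ZT6 replicate 3 they were 761 and 336. The cause was not tested.

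Signs turned in Lars2 (0.68) and Odf3l1 (-0.0054) with the indicator and in Nr1d1 under library size alone (-0.0012) and, over the fits without 1 library each, ranging from -0.040 to 0.137. Cspg4, near 0 throughout, was -0.018 under RLE and DESeq2, -0.043 under library size alone, -0.0065 under the stricter filter, -0.0084 with the 8 libraries, -0.19 and -0.13 with the rRNA terms, -0.13 in libraries of both sexes, and -0.13 to 0.074 on leaving out 1 library. Same-numbered replicates of KO and WT correlated by -0.08 to 0.08 in their deviations from the group means, so numbers do not pair libraries. The replicate block gave 691 and 252 calls. Even in the simulation, whose conditions were simpler than those of the real libraries, 1.5-fold differences were at the edge, with 33 of 67 called.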

Other observations

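Other lists had at most 1 gene called at ZT18, against 2.14% of all genes tested. All 24 cholesterol synthesis genes had positive fold changes (median log2 fold change 0.28), with sums of 3158 to 3665 CPM in KO libraries and 2582 to 2939 CPM in WT libraries, and at the other times the list's median was 0.41 at ZT0, -0.02 at ZT6 and -0.23 at ZT12. Mitochondrial ribosome genes (0.32, 19 of 20 positive), proteasome genes (0.19, 21 of 24), glucocorticoid response genes (0.32, 8 of 11), NRF2 targets (0.22, 7 of 10), hypoxia response genes (0.16, 12 of 17), fatty acid synthesis genes (0.13, 9 of 12), interferon response genes (0.13, 11 of 17), G2 and mitosis genes (0.12, 20 of 24) and S phase genes (0.10, 17 of 24) also had positive medians. Glutamate and GABA receptor genes had a median of -0.16 with 21 of 30 negative. Among 9 nuclear long non-coding RNAs 8 were negative (median -0.14) and Malat1 was called, while Kcnq1ot1 (-1.09, adjusted p = 0.0649) was not. With the rRNA term the medians of cholesterol synthesis and of glutamate and GABA receptor genes were 0.59 and 0.03. Ppp1r1b (DARPP-32), a phosphatase inhibitor of striatal neurons, was among the 15 largest higher genes, at 13.4 ± 6.51 CPM in KO libraries and 2.81 ± 1.56 CPM in WT libraries (SD, n = 4 each; log2 fold change 2.25, adjusted p = 0.0336).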
